A study of Mus musculus with 16 samples.

Results

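The response of mutant mouse colon organoids to tumour necrosis factor alpha (TNFa) was read from 8 of the 16 arrays of the series, chosen by their titles: 4 arrays of mutant organoids given TNFa and 4 of mutant organoids without it. Organoids are balls of epithelium grown from intestinal stem cells, here in the medium ENR, and TNFa was recombinant and given at 50 ng/ml for 12 h. The genotype is titled ATF2/7 fl, and its labels contradict each other. The genotype field reads ATF2 fl/fl with ATF7 KO, whereas the sample description and the design name an ATF2 knockout with floxed ATF7. No label says whether a floxed allele had been recombined, or with which Cre. The 8 arrays are therefore called mutant, and loss of either protein is not assumed. The other 8 arrays, 4 of WT organoids and 4 of WT organoids with the same TNFa treatment, entered the same fit and served as the comparison. The treatment text stands on every sample, and only samples whose own title names TNFa were taken as treated. The arrays of a group are numbered 1 to 4 with no statement of separate animals or cultures, so the p-values speak to the spread among these samples alone, which may be technical.

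TNFa binds the receptor TNFR1 on epithelial cells, which recruits TRAF and cIAP proteins and activates the IkB kinases. Destruction of IkB proteins then frees NF-kB dimers to enter the nucleus, where they induce chemokines, cytokines and their own inhibitors, IkBa and A20 among them. The same receptor activates the stress kinases JNK and p38, which phosphorylate ATF2 and its relative ATF7, transcription factors that bind cyclic AMP response elements (CREs) and AP-1 sites.

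In mutant organoids TNFa raised chemokine, cytokine, NF-kB feedback and oxidase genes and lowered gasdermin C genes and many detoxification and fat-handling genes. Of 11766 tested genes, 413 rose (3.51%) and 291 fell (2.47%), which is 704 or 5.98% in either direction at a Benjamini-Hochberg adjusted p under 0.05 in limma. At least 2-fold changes were fewer, 52 rises and 16 falls, while 285 risen and 228 fallen genes changed by less than 1.5-fold. At an unadjusted p under 0.05 in limma, 1038 of the 11766 tested genes were higher and 807 were lower. List counts at that threshold below are to be read against these. The median change over all tested genes was 0.01 log2. The 4 treated arrays lay above all 4 untreated ones for 395 of the 413 risen genes and below them for 272 of the 291 fallen genes, against 7.88% above and 5.98% below among all tested genes. The calls rest on these same arrays, so this separation describes the called genes and is no independent support. Without treated array 1, the number of fallen genes went from 291 to 180. Signals are log2 values, and a group mean under 6.56 log2 is called dim, since a fold change from or into that range is approximate. Array medians lay between 7.02 and 7.11 log2, and the mutant arrays correlated with the rest of their own group at a mean r of 0.9942 to 0.9962. WT + TNFa array 2 stood lowest, at 0.9885.

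**Figure D1:**
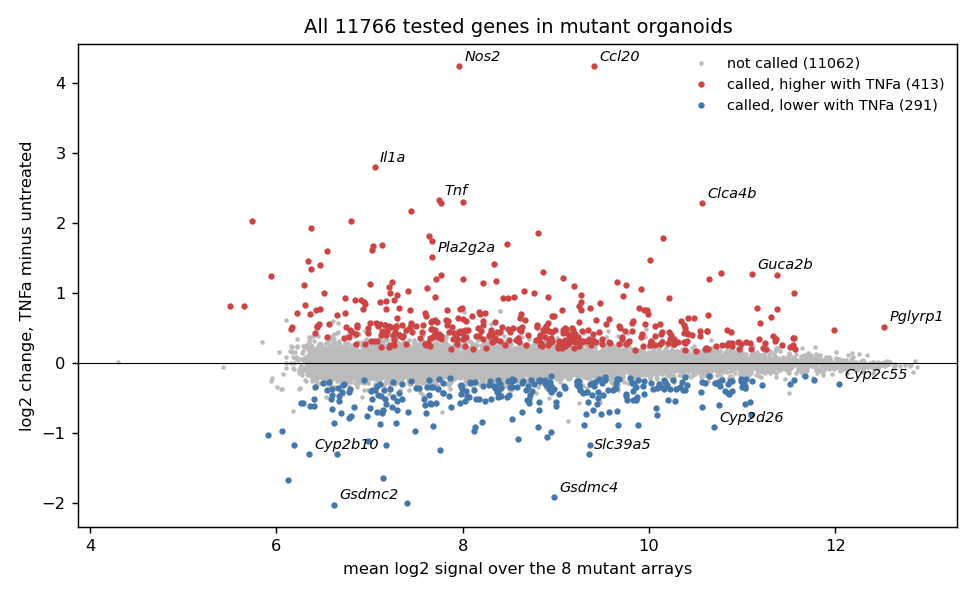
Change with TNFa in mutant organoids (vertical axis, log2, treated minus untreated mean, n = 4 arrays each) against the mean log2 signal over the 8 mutant arrays, 1 point per tested gene. The 413 risen genes (red) reach far higher than the 291 fallen genes (blue) reach low: Ccl20 and Nos2 lie above 4 and Gsdmc2 lies near -2.

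The organoids carried epithelial marker genes, and most markers of other cells were dim. All 19 epithelial identity genes on the array lay above the dim range, with a mean level of 11.52 to 11.56 log2 in the untreated and 11.54 to 11.57 in the treated mutant arrays, and 0 of them were called (2 higher and 1 lower at an unadjusted p under 0.05). Of 12 endothelial and glial genes, 12 were dim in both mutant groups, as were 17 of 20 immune cell genes and 12 of 19 fibroblast and smooth muscle genes. The other 7 fibroblast list genes were Col1a1, Col6a1, Pdgfrb, Vim, Tagln, Myh11 and Fbln1, with untreated means from 6.47 (Tagln) to 8.19 log2 (Col1a1). The other 3 immune list genes were Lyz2, Cd14 and Kit, with untreated means of 8.45, 8.92 and 9.55. The mean of the log2 signals over all genes of the fibroblast list was 6.14 to 6.31 untreated and 6.15 to 6.28 treated. That of the immune list was 5.98 to 6.08 and 5.98 to 6.12. In bulk samples, fewer cells of a type and less RNA per cell cannot be told apart.

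To show the DNA in front of the most induced genes, promoters from RefSeq (build GRCm38.p6) were searched on both strands, over 250 bases before the start, for an NF-kB motif, for the AP-1 motif TGANTCA and for the full CRE TGACGTCA. Of the 20 genes with the largest rises, 16 had an entry, 3 of these held an NF-kB motif, 4 held an AP-1 motif and 0 held a CRE. The 4 printed here were chosen because they hold a match, which is in capitals. Each runs 5′ to 3′ along its gene and ends 1 base before the start. They belong to Ccl20 (chr1:83116516-83116765, plus strand), Tnfaip3 (chr10:19015411-19015660, minus strand), Csf1 (chr3:107760470-107760719, minus strand) and Il1a (chr2:129309973-129310222, minus strand). In Ccl20 and Csf1 the capitals mark an NF-kB motif, in Il1a an AP-1 motif, and in Tnfaip3 an AP-1 motif followed by 2 NF-kB motifs.
Ccl20: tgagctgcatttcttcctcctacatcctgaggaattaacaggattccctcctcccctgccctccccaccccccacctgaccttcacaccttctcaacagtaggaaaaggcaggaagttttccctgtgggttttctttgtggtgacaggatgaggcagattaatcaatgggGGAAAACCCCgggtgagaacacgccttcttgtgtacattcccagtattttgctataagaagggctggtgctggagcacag
Tnfaip3: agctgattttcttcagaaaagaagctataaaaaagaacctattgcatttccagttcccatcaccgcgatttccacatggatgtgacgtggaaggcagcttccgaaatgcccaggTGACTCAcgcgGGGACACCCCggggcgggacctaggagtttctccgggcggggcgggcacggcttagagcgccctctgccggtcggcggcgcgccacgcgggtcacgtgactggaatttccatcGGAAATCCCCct
Csf1: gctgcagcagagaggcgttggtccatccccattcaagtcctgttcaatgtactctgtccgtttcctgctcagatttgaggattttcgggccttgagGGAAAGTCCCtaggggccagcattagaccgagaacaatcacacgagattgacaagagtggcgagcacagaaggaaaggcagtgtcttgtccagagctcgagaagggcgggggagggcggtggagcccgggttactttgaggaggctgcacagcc
Il1a: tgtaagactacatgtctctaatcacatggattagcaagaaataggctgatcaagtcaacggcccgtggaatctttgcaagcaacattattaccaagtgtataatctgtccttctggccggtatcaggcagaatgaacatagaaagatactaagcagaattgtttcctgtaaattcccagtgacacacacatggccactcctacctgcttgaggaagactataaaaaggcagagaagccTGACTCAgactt

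Over all tested genes with an entry, 4.46% of 9558 held the NF-kB motif, 4.97% the AP-1 motif and 2.71% the CRE. Among the 309 risen genes with an entry the shares were 12.9%, 10.7% and 0.324%, the last being 1 gene. Among the 40 that rose at least 2-fold they were 15%, 25.0% and 0. Among the 231 fallen genes with an entry they were 3.46%, 6.49% and 0.433%. These shares are a description, with no test. A match is a string of letters and does not show binding.

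The chemokine Ccl20, which draws CCR6-bearing lymphocytes and dendritic cells, and the inducible nitric oxide synthase Nos2 rose most. Ccl20 read 7.27, 6.96, 7.51 and 7.40 log2 in untreated arrays 1 to 4 and 11.58, 11.46, 11.60 and 11.48 in treated arrays 1 to 4. The lowest treated array lay far above the highest untreated one. The rise was 19.0-fold (4.25 log2, SE 0.11, adjusted p = 1.56e-13). Of 18 tested chemokines 8 rose and 0 fell (0 lower at an unadjusted p under 0.05), with a list median of 0.07 log2, so the chemokine response was held by a minority of genes. Cxcl11, a ligand of the receptor CXCR3, rose 4.09-fold, starting dim, and the related Cxcl10 and Cxcl9 rose 1.91-fold and 1.77-fold, also from the dim range. Cxcl16, a membrane-bound chemokine, rose 2.44-fold from an already high 10.14 ± 0.16 log2 (mean ± SD, n = 4). Ccl6 rose 1.70-fold and the neutrophil attractant Cxcl2 1.60-fold, the latter starting dim.

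Cytokine genes rose with them. Il1a, which encodes the alarm cytokine interleukin 1 alpha, read 5.60, 6.0, 5.42 and 5.60 log2 untreated and 8.49, 8.37, 8.45 and 8.5 treated. All untreated arrays were dim and the treated arrays agreed closely. The rise was 6.94-fold (2.80 log2, adjusted p = 1.32e-09). Tnf, the gene of the cytokine given, read 6.45, 6.57, 7.09 and 6.20 log2 untreated and 8.76, 8.87, 9.04 and 8.96 treated. These groups did not overlap, and the rise was 5.03-fold (2.33 log2, adjusted p = 1.14e-08). In the list of cytokines and growth factors 6 of 23 rose and 1 fell, with a median of 0.11 log2. Csf1, the macrophage growth factor, rose 3.51-fold, Tgfb1 2.29-fold, Lif 1.54-fold and the CSF1 receptor ligand Il34 1.46-fold. Il18 was the member that fell, 1.27-fold from 11.17 ± 0.04 log2. Outside the list, Flt3l, the growth factor of dendritic cell precursors, rose 3.25-fold and Tnfsf15, a TNF family ligand, 2.04-fold. Among 28 cytokine receptors 6 rose and 1 fell. Il6st, the shared signalling chain of the interleukin 6 family, rose 1.70-fold, Il4ra 1.38-fold, Il20rb 1.48-fold and, from the dim range, Il5ra 2.74-fold. None of 14 cytokine signal regulators was called (2 higher and 0 lower at an unadjusted p under 0.05), and Socs3 changed by 0.10 log2 (adjusted p = 0.692) and Stat3 by 0.04 (adjusted p = 0.873).

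**Figure D2:**
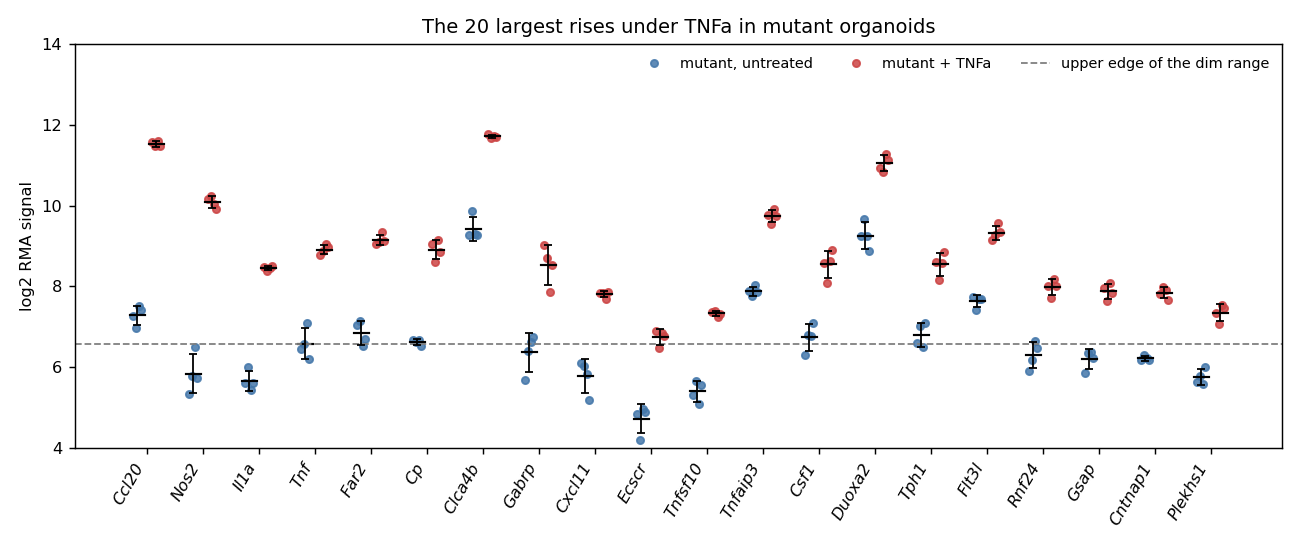
Log2 RMA signal of the 20 genes with the largest rises in the 4 untreated (blue) and 4 treated (red) mutant arrays, with the mean and SD in black and the upper edge of the dim range dashed. In every gene shown the treated arrays lie above the untreated ones, and Nos2, Il1a, Gabrp, Cxcl11, Ecscr, Tnfsf10, Rnf24, Gsap, Cntnap1 and Plekhs1 start in the dim range.

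The machinery of TNFa signalling itself moved at its feedback and NF-kB ends. Of 10 tested NF-kB subunits and IkB proteins 8 rose and 0 fell, with a median of 0.49 log2 against 0.01 for all tested genes. As with every list here, its members were chosen with earlier results of these data known, so these values are a description. The list's median, set against the untreated mean, lay between -0.03 and 0.03 log2 in the untreated arrays and between 0.42 and 0.53 in the treated ones. Nfkbia, which encodes IkBa, read 9.26, 9.18, 9.48 and 9.16 log2 untreated and 10.67, 10.71, 10.80 and 10.79 treated. Both groups were tight and far apart, with a rise of 2.78-fold (1.47 log2, adjusted p = 1.32e-09). Nfkb2, the p100 precursor of the non-canonical pathway, rose 2.22-fold, its partner Relb 1.60-fold, and the nuclear IkB relatives Bcl3 1.91-fold, Nfkbid 1.41-fold and Nfkbiz 1.40-fold. Nfkbib rose 1.34-fold. Rela, the main activating subunit, was 0.18 log2 higher with TNFa and was not called (adjusted p = 0.529). Its treated mutant arrays (8.93 to 9.03 log2) lay above its untreated ones (8.78 to 8.87), as in 7.88% of all tested genes. Its SD was 0.05 untreated and 0.04 treated in mutant. In WT and WT + TNFa, which entered the same fit, it was 0.17 and 0.31.

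Of 28 genes of the TNF receptor complex and its feedback 10 rose and 0 fell (1 lower at an unadjusted p under 0.05), with a median of 0.16 log2. Tnfaip3, the gene of the ubiquitin editor A20, read 7.87, 7.76, 8.03 and 7.85 log2 untreated and 9.77, 9.55, 9.92 and 9.74 treated, with no overlap. It rose 3.65-fold (1.87 log2, adjusted p = 1.21e-08). Birc3, which encodes the ubiquitin ligase cIAP2, rose 2.33-fold, the IkB kinase relative Ikbke 1.95-fold, the RNase gene Zc3h12a 1.92-fold, the adaptor Traf2 1.67-fold and the A20-binding Tnip3 1.47-fold. Of the 2 TNF receptors Tnfrsf1b rose 1.56-fold, and Tnfrsf1a, which encodes TNFR1, changed by -0.01 log2 (adjusted p = 0.983).

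In the list of AP-1, ATF and CREB members, the families to which ATF2 belongs, 1 of 32 rose, Batf2, and 1 fell, Ddit3. That is 6.25% in all, near the 5.98% of all tested genes. Batf2 lost its call without any of 4 arrays and Ddit3 without any of 6. At an unadjusted p under 0.05 in limma, 6 of the 32 were higher and 1 was lower. Over all 11766 tested genes these counts were 1038 and 807. The treated arrays lay above all untreated ones for 6 of the 32, against 7.88% of all tested genes, and below them for 0. Jun changed by 0.12 log2 (adjusted p = 0.586), Fos by 0.14 (0.615), Atf3 by -0.07 (0.888) and Atf4 by 0.08 (0.748). Atf2 read 10.12, 10.18, 10.13 and 10.15 log2 untreated and 10.12, 10.13, 10.13 and 10.10 treated. The groups overlapped, and the change was -0.03 log2 (adjusted p = 0.917). The sources used here do not place the Atf2 probe set within the gene, so this value checks no knockout, and Atf7 had no named probe set. In the MAPK pathway 2 of 39 rose and 2 fell, 10.3% in all against 5.98% of all tested genes. The fallen genes were Map2k6 and Map3k5. Map2k6 lost its call without any of 6 arrays and Map3k5 without any of 8. Mapk11, the p38 beta kinase gene, read 7.98, 8.32, 8.31 and 8.21 log2 untreated and 9.72, 9.45, 9.41 and 9.46 treated. It rose 2.48-fold (adjusted p = 3.92e-08) with no overlap. The immediate early gene Ier3 rose 1.87-fold.

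Oxidant-producing genes rose as a small, strong group. Nos2 read 5.34, 5.79, 6.51 and 5.72 log2 untreated and 10.15, 10.24, 10.03 and 9.90 treated. All untreated arrays were dim and the treated ones bright, with a rise of 18.9-fold (4.24 log2, SE 0.17, adjusted p = 7.71e-11). Duoxa2, the maturation factor of the hydrogen peroxide-producing dual oxidase, read 9.24, 9.67, 9.25 and 8.86 untreated and 10.94, 10.84, 11.28 and 11.12 treated. It rose 3.46-fold with no overlap. Nox1, the colonic NADPH oxidase, rose 2.18-fold and its membrane partner Cyba 1.73-fold. Gch1, the first enzyme of the cofactor tetrahydrobiopterin, rose 1.39-fold. In this list 7 of 17 rose and 1 fell, and its median was 0.01 log2, so the rises did not extend to most of its members.

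Antigen presentation and interferon-linked genes moved less. Of 18 MHC class I peptide loading genes 6 rose and 0 fell (0 lower at an unadjusted p under 0.05), with a median of 0.19 log2. The immunoproteasome subunits Psmb9 and Psmb10 rose 1.52-fold and 1.34-fold, the proteasome activator Psme2 1.24-fold and the peptide editor Tapbpl 1.5-fold. B2m, the light chain of class I, was 0.31 log2 higher and was not called (adjusted p = 0.0851), but was without untreated array 1 (0.0281), with a variance trend and robust fitting (0.0469) and with array weights (0.0215). Of 32 interferon response genes 6 rose and 0 fell (1 lower at an unadjusted p under 0.05), with a median of 0.11 log2. The count includes the chemokines Cxcl9, Cxcl10 and Cxcl11. Irf1, which NF-kB also induces, rose 1.54-fold, the RNA sensor Ddx58 1.86-fold from the dim range and Dtx3l 1.34-fold, whereas the interferon marker Isg15 was 0.39 log2 higher and was not called (adjusted p = 0.162). Of 19 MHC class II and immune-facing surface genes 5 rose, or 3 without treated array 3 or without untreated array 2. The antiphagocytic signal Cd47 rose 1.49-fold, the nectin-like receptor Pvr 1.60-fold and the adhesion molecule Icam1 1.5-fold.

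Sensing and killing of microbes was also touched. Of 26 microbe sensing genes 6 rose and 0 fell (3 lower at an unadjusted p under 0.05). They included Cd14, the lipopolysaccharide co-receptor (1.42-fold), Sting1 (1.43-fold), Tlr3 (1.18-fold) and, within the dim range, Nod2 (1.76-fold). Of 19 antimicrobial genes 5 rose and 0 fell (0 lower at an unadjusted p under 0.05), with a median of 0.28 log2. Pla2g2a, the bactericidal phospholipase, rose 2.85-fold, Ang4, an antimicrobial ribonuclease, 2.30-fold, the peptidoglycan-binding Pglyrp1 1.44-fold, and the mucosal pentraxins Mptx2 and Mptx1 1.42-fold and 1.39-fold.

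Cell death genes moved in opposite directions. In a list of 41, 9 rose and 4 fell, and the number risen was 5 without treated array 1, without treated array 3 or without untreated array 2. Tnfsf10, the death ligand TRAIL, read 5.31, 5.67, 5.09 and 5.55 log2 untreated and 7.37, 7.39, 7.25 and 7.30 treated, a rise of 3.80-fold from the dim range with no overlap. The inflammatory caspase Casp4 rose 1.73-fold, its substrate Gsdmd, the pore former of pyroptosis, 1.52-fold, and the BCL2 family genes Bid and Bok 1.85-fold and 1.49-fold. The gasdermin C genes, another branch of that pore-forming family, fell most of all genes. Gsdmc4 read 10.16, 10.05, 9.73 and 9.78 log2 untreated and 8.19, 7.46, 8.39 and 8.05 treated. The groups were far apart, and the fall was 3.76-fold (adjusted p = 6.2e-07). Gsdmc2 fell 4.06-fold and Gsdmc3 4.00-fold, both into the dim range. These near-identical genes can share probes, so the 3 falls are not separate observations.

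Many genes of xenobiotic and steroid metabolism fell. In the list of xenobiotic and steroid metabolism 30 of 67 tested genes fell and 2 rose, 47.8% in all against 5.98% of tested genes, with a median of -0.26 log2 against 0.01. The list was chosen with earlier results of these data known, so these values are a description, with no test. The list's median lay between -0.02 and 0.04 log2 in the untreated arrays and between -0.29 and -0.21 in the treated ones, so all treated arrays were lower. By enzyme class, 10 of 15 cytochrome P450 genes of the list fell, 5 of 5 carboxylesterases, 5 of 8 glutathione S-transferases and 2 of 5 aldo-keto reductases of the AKR1 family, and in these classes 0 rose. The counts of the other classes follow. Among 5 sulfotransferases Sult2b1 rose and Sult1c2 fell, and each lost its call with no filter (adjusted p = 0.0502 and 0.0613) and without any of 4 or 5 arrays. Among 4 ALDH1 genes 1 rose and 2 fell. Of 5 genes named Hsd 2 fell and 0 rose, the same counts as in the AKR1 family. Of 3 microsomal glutathione S-transferases 1 fell, and of 2 alcohol dehydrogenases 1. None of 4 Abc transporters, 2 Fmo genes and 1 Ugt gene was called. The grouping by class was made after the values were seen, and similar genes of a class may share probes.

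Cyp3a13, a drug-oxidising P450, read 10.47, 10.46, 10.45 and 10.47 log2 untreated and 9.88, 9.94, 9.98 and 9.97 treated. Both groups were tight, and a 1.43-fold fall gave an adjusted p of 1.98e-05. Cyp2d26 read 11.27, 11.06, 11.05 and 11.23 untreated and 10.12, 10.20, 10.26 and 10.38 treated, with no overlap, and fell 1.88-fold (adjusted p = 0.00011). Cyp4f14, which inactivates leukotriene B4, read 11.43, 11.52, 11.10 and 11.26 untreated and 10.79, 10.79, 10.70 and 10.70 treated, again apart, and fell 1.49-fold. Cyp2b10, the classic target of the nuclear receptor CAR, read 7.16, 7.26, 6.78 and 6.80 untreated and 5.58, 5.51, 5.49 and 6.22 treated. Treated array 4 was the nearest to the untreated arrays, and the fall of 2.46-fold ran into the dim range. Cyp2c55, the brightest of these, fell 1.23-fold from 12.19 ± 0.05 log2. Over all 39 tested genes named Cyp, 20 fell and 0 rose, with a median of -0.30 log2, among them 9 of 9 Cyp2d and 5 of 5 Cyp2c genes. Cyp2d10 (1.51-fold), Cyp2d34 (1.23-fold), Cyp2c67 (1.48-fold) and, into the dim range, Cyp2c70 (2.25-fold) were of these families.

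The carboxylesterase Ces2a read 10.68, 10.51, 10.36 and 10.31 log2 untreated and 9.61, 9.62, 9.81 and 9.82 treated, and fell 1.68-fold with no overlap. Ces1e fell 1.96-fold and Ces1f 1.63-fold. The glutathione S-transferases Gstt1, Gstm3 and Gstm1 fell 1.39-fold, 1.37-fold and 1.34-fold, and the microsomal Mgst1 1.37-fold. The aldo-keto reductases Akr1c14 and Akr1c19 fell 2.11-fold and 1.47-fold, the alcohol dehydrogenase Adh6a 1.86-fold, and the retinaldehyde dehydrogenases Aldh1a7 and Aldh1a1 1.49-fold and, into the dim range, 1.53-fold. Another member of the latter family moved the other way: Aldh1a3 rose 1.59-fold. Outside the list, Hpgd, which inactivates prostaglandins, read 9.89, 10.14, 9.96 and 9.82 untreated and 8.73, 8.81, 8.74 and 8.83 treated. It fell 2.26-fold (adjusted p = 3.46e-08) with no overlap. Nr1i3, the gene of CAR, was among the fallen genes of the xenobiotic list. Nr1i2, the gene of the xenobiotic receptor PXR, was 0.21 log2 lower and was not called (adjusted p = 0.0864), but was with array weights (0.0162) and after a further quantile normalization (0.03). The list of oxidative stress and glutathione genes had 1 of 33 risen, the exporter Abcc1 (1.26-fold), and 1 fallen, Gstm1. That is 6.06% in all, near the 5.98% of all tested genes.

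**Figure D3:**
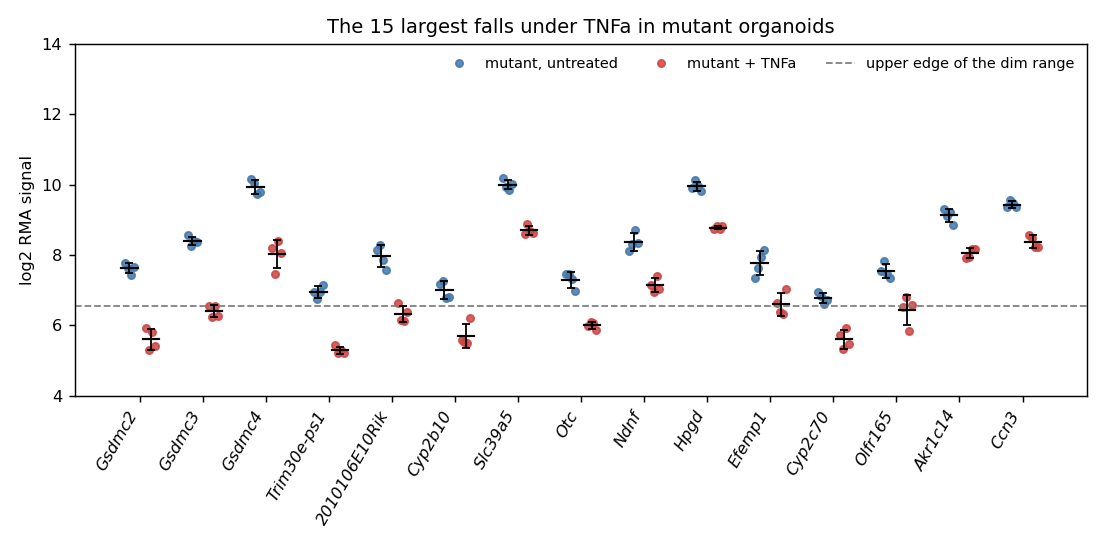
Log2 RMA signal of the 15 genes with the largest falls in the 4 untreated (blue) and 4 treated (red) mutant arrays, with mean and SD in black and the upper edge of the dim range dashed. The treated arrays lie below the untreated ones in each gene, and the gasdermin C genes, P450 genes and carrier Slc39a5 are among them.

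Fatty acid oxidation and fat absorption fell as a list: 11 of 36 genes fell and 1 rose, with a median of -0.18 log2. The number fallen was 7 without treated array 1 or without treated array 4 and 5 without untreated array 1, and the list's median was -0.20 to -0.15 log2 when any 1 array was left out. Fabp2, the intestinal fatty acid binding protein, read 8.62, 8.89, 8.43 and 8.41 log2 untreated and 7.69, 7.39, 7.86 and 7.77 treated. Its groups were apart, and it fell 1.88-fold. Nr1h4, the bile acid receptor FXR, fell 1.42-fold, the mitochondrial thiolase Acaa2 1.30-fold, the coactivator of mitochondrial biogenesis Ppargc1a 1.28-fold and the sterol exporter Abcg8 1.96-fold, within the dim range. Fgf15, a hormone gene that FXR is known to induce, rose 2.19-fold from the dim range, opposite to Nr1h4. Rbp2, the cellular retinol binding protein of enterocytes, fell 1.59-fold. Otc, a urea cycle enzyme, read 7.45, 7.45, 7.31 and 6.97 untreated and 5.98, 6.10, 6.06 and 5.87 treated, a fall of 2.44-fold into the dim range, and the alanine aminotransferase Gpt fell 1.80-fold. They belong to a list of mitochondrial amino acid and energy metabolism in which 3 of 46 fell and 0 rose (0 higher at an unadjusted p under 0.05), or 5 fell without WT + TNFa array 2. Its called share was 6.52%, near the 5.98% of all tested genes. In synthesis of fat and sterols 3 of 35 genes rose and 0 fell (0 lower at an unadjusted p under 0.05). That is 8.57%, against 5.98% of all tested genes. Risen were the fatty acyl-CoA reductase Far2 (4.94-fold), the mevalonate enzyme Mvd (1.31-fold) and Hsd17b7, which lost its call without any of 4 arrays. Sptssb, a subunit of the first enzyme of sphingolipid synthesis, fell 2.03-fold within the dim range.

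**Figure D4:**
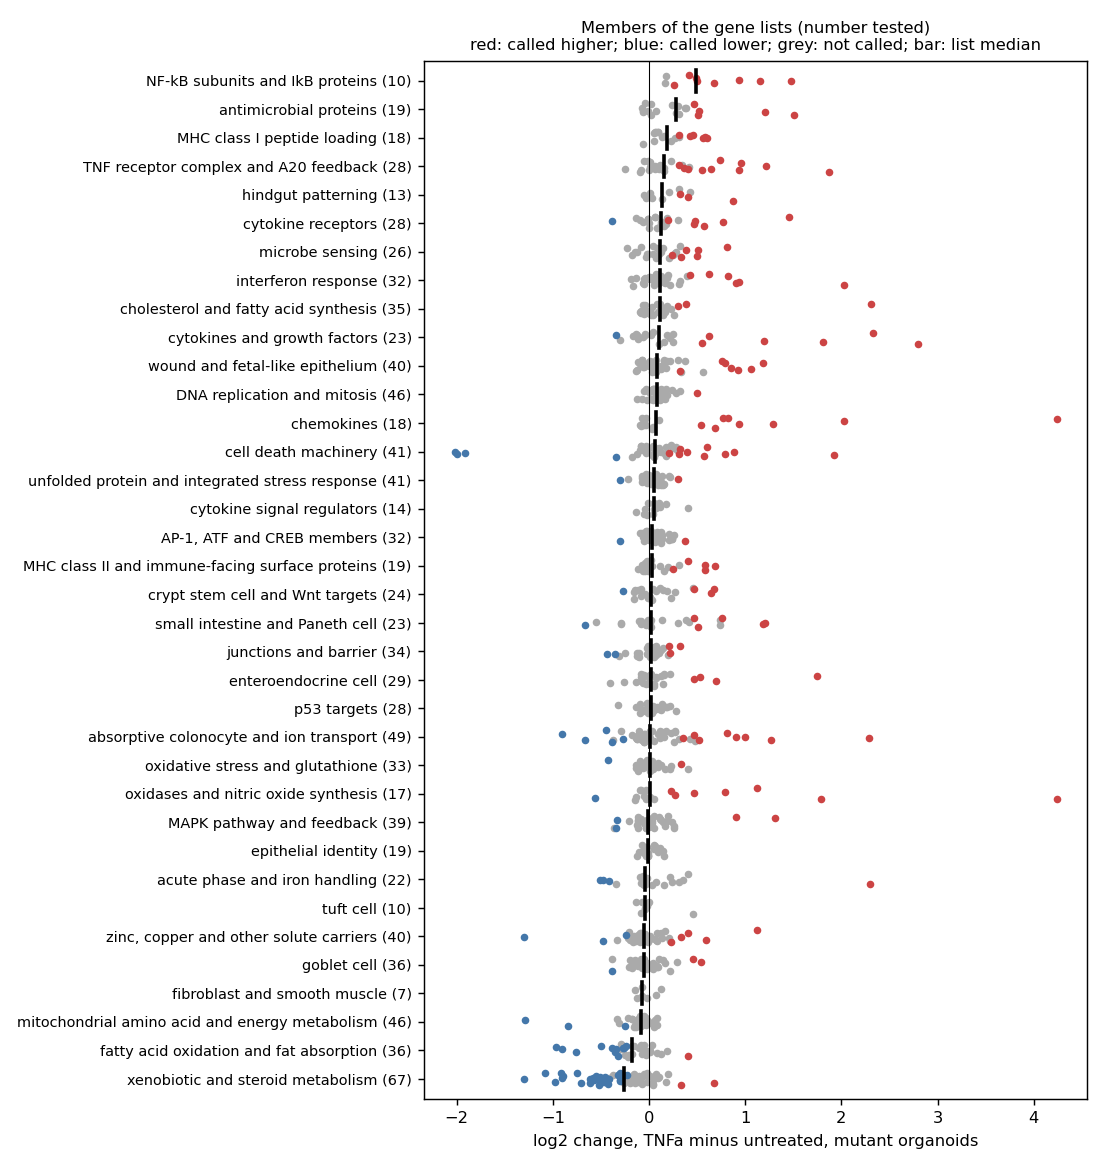
Log2 change with TNFa in mutant organoids (horizontal axis) of every tested member of the gene lists with at least 7 tested members, 1 point per gene, with the list median as a black bar; lists are ordered by that median and a gene can stand in several lists. NF-kB subunits and IkB proteins stand highest with a median of 0.49, and xenobiotic and steroid metabolism lowest with -0.26.

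Transport genes of the colon surface moved in both directions, with 8 of 49 absorptive and ion transport genes higher and 5 lower and a median of 0.01 log2. Guca2b, the gene of the hormone uroguanylin, read 10.50, 10.41, 10.62 and 10.37 log2 untreated and 11.76, 11.75, 11.80 and 11.67 treated. It rose 2.41-fold (adjusted p = 1.32e-09) with no overlap, and Guca2a, the gene of guanylin, rose 2.00-fold, while Gucy2c, their shared receptor guanylate cyclase C, fell 1.2-fold. The chloride channel regulators Clca4b and Clca3b rose 4.87-fold and 2.39-fold. For Clca4b, untreated array 2 read 9.87 against 9.27, 9.30 and 9.28 in the other untreated arrays, and the treated arrays read 11.77, 11.66, 11.72 and 11.70. The sodium-hydrogen exchangers Slc9a3 and Slc9a4 rose 1.76-fold and 2.66-fold, carbonic anhydrase Car2 1.28-fold, and the butyrate carrier Slc16a1 fell 1.30-fold. Of 40 solute carriers for metals and other substrates 5 rose and 3 fell. Slc39a5, a basolateral zinc importer, read 10.18, 9.94, 9.86 and 10.02 untreated and 8.59, 8.89, 8.69 and 8.64 treated, and fell 2.46-fold with no overlap. Slc39a8 rose 1.25-fold, the bile acid exporter subunit Slc51b 1.51-fold and the amino acid carrier Slc6a14 2.18-fold from the dim range. In the acute phase and iron list 1 of 22 rose and 3 fell: the exporter Slc40a1 fell 1.39-fold and the transferrin receptor Tfrc 1.34-fold, whereas Cp, the copper-carrying ferroxidase ceruloplasmin, read 6.67, 6.61, 6.67 and 6.52 untreated and 9.04, 8.59, 9.16 and 8.85 treated, a rise of 4.90-fold.

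The called shares of the cell identity lists varied, against 5.98% of all tested genes. They were 26.1% for small intestine and Paneth cell, 16.7% for crypt and Wnt, 13.8% for enteroendocrine and 8.33% for goblet cell genes. The share was 2.17% for DNA replication and mitosis and 0 for tuft cell genes and p53 targets. These lists were chosen with earlier results of these data known, so the shares are a description. Of 36 goblet cell genes 2 rose and 1 fell: the trefoil factor Tff2 (1.37-fold) and the mucin sialyltransferase St6galnac1 (1.45-fold) rose and Galnt7 fell 1.30-fold, and Muc2, the main mucin, changed by -0.02 log2 (adjusted p = 0.956). The goblet list's median, set against the untreated mean, was -0.07 to -0.03 log2 in the treated and -0.02 to 0.03 in the untreated arrays. In the enteroendocrine list 4 of 29 genes rose and 0 fell (2 lower at an unadjusted p under 0.05). Tph1, the serotonin-synthesis enzyme, read 6.58, 7.01, 6.49 and 7.10 log2 untreated and 8.60, 8.14, 8.58 and 8.84 treated and rose 3.35-fold, the hormone genes Cck and Gcg rose 1.62-fold and 1.44-fold, and Chga, a general marker of these cells, changed by -0.01 (adjusted p = 0.977). The Cck arrays overlapped between the groups. The enteroendocrine list's median was 0.04 to 0.06 log2 in the treated and -0.04 to 0.00 in the untreated arrays. In the list of small intestine and Paneth cell genes 5 of 23 rose, the genes Defa31, Mmp7, Ang4, Mptx1 and Mptx2, and Rbp2 fell, with a median of 0.02 log2. None of 10 tuft cell genes was called (1 higher and 0 lower at an unadjusted p under 0.05). Among the crypt and Wnt genes 3 of 24 rose and 1 fell: Cd44 rose 1.60-fold, Slc12a2 1.56-fold and Sox9 1.38-fold, while Lgr5, the stem cell marker, changed by -0.08 (adjusted p = 0.814). In DNA replication and mitosis 1 of 46 rose, E2f2 (1.42-fold), and Mki67 changed by 0.12 (adjusted p = 0.387). None of 28 p53 targets was called (2 higher and 1 lower at an unadjusted p under 0.05).

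Genes of wound-associated and fetal-like epithelium rose in 7 of 40 cases and fell in 0 (0 lower at an unadjusted p under 0.05), with a median of 0.09 log2. The integrin chains Itgb6 and Itga2, which bind matrix at wound edges, rose 2.08-fold and 1.90-fold, the laminin chain Lama3 1.81-fold, the plasminogen activator Plat 1.73-fold and the metalloprotease Mmp7 2.27-fold. Among 34 junction genes 3 rose and 2 fell, and only 1 rose without any 1 of treated arrays 1 and 3 and untreated arrays 1, 2 and 3. Cldn4 rose 1.25-fold, and Cldn8 and Cldn15 fell 1.35-fold and 1.27-fold. Outside these lists, Cldn14 rose 2.21-fold and the sulfotransferase Chst11 2.40-fold. Of 13 hindgut patterning genes 3 rose, or 1 without treated array 3, treated array 4 or untreated array 2, with Hoxd13 at 1.83-fold.

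Other genes with large changes stood in no list. Gabrp, a GABA receptor subunit, rose 4.49-fold with a wide spread (6.36 ± 0.48 to 8.53 ± 0.49 log2, SD, n = 4), and Ecscr 4.07-fold from 4.72 ± 0.36 to 6.75 ± 0.19, which is barely above the dim range. Rnf24 rose 3.22-fold, Gsap 3.19-fold, Cntnap1 3.07-fold and Plekhs1 3.03-fold, all from the dim range. Among the falls were the pseudogene Trim30e-ps1 (3.16-fold), 2010106E10Rik (3.13-fold) and Olfr165 (2.16-fold), all into the dim range, the secreted factor Ndnf (2.35-fold) and the matricellular protein Ccn3 (2.08-fold). A separate fit took every probe set on its own, 12321 in all, of which 445 rose and 306 fell. In it, of 555 tested probe sets with no gene symbol, 29 rose (5.23%) and 14 fell (2.52%). Among all tested genes of the main fit the shares were 3.51% and 2.47%.

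Some genes chosen by the naming rule were called near the threshold and lost the call when 1 array was left out. Lgr4, the R-spondin receptor, fell 1.21-fold and had an adjusted p of 0.0755 without treated array 1. Steap3 fell 1.42-fold (0.0613 without treated array 4, 0.0556 without untreated array 1), and Ceacam10 rose 1.32-fold (0.0705 without treated array 3, 0.0651 without untreated array 2). Batf2 (1.29-fold higher), Hsd17b7 (1.23-fold higher) and Hoxb9 (1.25-fold higher) lost it without any of 4 arrays, with adjusted p up to 0.0953, 0.0923 and 0.117. Defa31 (1.70-fold higher), F11r (1.16-fold higher) and Ankmy1 (1.2-fold lower) lost it without any of 5, up to 0.0834, 0.0935 and 0.12. Ddit3 (1.23-fold lower), Hyou1 (1.23-fold higher), Maoa (1.19-fold lower) and Map2k6 (1.27-fold lower) lost it without any of 6, up to 0.125, 0.0869, 0.0936 and 0.133, Map3k5 (1.26-fold lower) without any of 8, up to 0.154, and Hoxd11 (1.33-fold higher) without any of 12, up to 0.156. Ddit3 and Hyou1 were the only called genes among 41 of the unfolded protein and integrated stress response, 4.88% against 5.98% of all tested genes.

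Whether the response differed from that of WT organoids was tested as the difference between the TNFa changes. In WT the same fit called 592 rises (5.03%) and 677 falls (5.75%). The 287 genes that rose in both genotypes were 69.5% of the mutant rises and 48.5% of the WT rises, and the 222 that fell in both were 76.3% and 32.8% of the falls. Of 126 genes that rose in mutant and were not called in WT, 111 had a positive change in WT, and of 69 such falling genes 63 had a negative one. The difference itself was called for 0 of these genes (45 and 22 of them at an unadjusted p under 0.05). Over all tested genes it was called for 1 (0.0085%), with 853 at an unadjusted p under 0.05.

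That gene was Reg4, a lectin secreted by goblet and enteroendocrine cells. It read 11.53, 11.54, 11.68 and 11.48 log2 in untreated and 11.44, 11.36, 11.53 and 11.62 in treated mutant arrays, and 11.10, 11.07, 10.86 and 10.88 in untreated and 10.20, 10.25, 10.22 and 10.23 in treated WT arrays. The mutant groups overlapped, whereas the WT groups were apart. The change was -0.07 in mutant (adjusted p = 0.763) and -0.75 in WT (adjusted p = 1.57e-06), and the difference was 0.69 log2 (SE 0.10, 95% interval 0.47 to 0.90, adjusted p = 0.0344). It lost the call without any of 11 of the 16 arrays, with adjusted p from 0.0604 to 0.137: WT arrays 1 and 2, WT + TNFa arrays 1, 2 and 3, treated mutant arrays 1, 3 and 4 and untreated mutant arrays 1, 2 and 4. It also lost the call with no filter (0.0564) and with the replicate number as a block (0.193). The untreated mutant arrays were above the untreated WT arrays before any treatment.

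No other gene was called for the difference. Pdk2, Gm15401 and Zdhhc15 came next by p, with differences of 0.49, 0.53 and 0.73 log2 (adjusted p = 0.104, 0.104 and 0.133) and changes of -0.13, -0.06 and 0.14 in mutant against -0.62, -0.60 and -0.59 in WT. Pdk2 and Gm15401 were called with the 60th percentile filter, with a variance trend and robust fitting and with array weights, and Pdk2 without WT + TNFa array 4. The genes below were called for TNFa in mutant. Gcg, the glucagon and GLP-1 precursor, rose by 0.53 log2 in mutant and was 0.31 lower in WT with TNFa, which was not called there. The difference was 0.84 (95% interval 0.50 to 1.18, adjusted p = 0.143, or 0.0302 without treated mutant array 2 and 0.0401 with a variance trend and robust fitting). Pla2g2a rose by 1.51 in mutant and 0.51 in WT (difference 1.00, adjusted p = 0.143, or 0.0419 with a variance trend and robust fitting). Its untreated signal was 6.92 ± 0.30 log2 in mutant and 7.52 ± 0.14 in WT, so the genotypes started from different levels. Il1a rose by 2.80 and 1.86 (difference 0.94, adjusted p = 0.275, or 0.0486 without WT + TNFa array 4), and Lcp1, an actin-bundling protein, by 1.09 in mutant against 0.00 in WT (difference 1.09, adjusted p = 0.275). Defa31 had a difference of 1.24 (adjusted p = 0.275, or 0.0401 without treated mutant array 2) and Slc6a14 of 1.15 (adjusted p = 0.275). In the other direction, Guca2b rose less in mutant (1.27 against 1.65 log2, difference -0.39, adjusted p = 0.297), as did Tff2 (difference -0.49, adjusted p = 0.332) and St6galnac1 (-0.39, adjusted p = 0.391). Dnttip1 fell in mutant by 0.56 and was 0.05 lower in WT (difference -0.51, adjusted p = 0.345), and Ankmy1 had a difference of -0.38 (adjusted p = 0.345). Efemp1, an extracellular matrix protein, fell 2.26-fold in mutant, from 7.35, 7.64, 7.93 and 8.15 log2 to 6.65, 6.38, 6.32 and 7.02, while the WT change was -0.12. The difference of -1.05 had a wide interval (-1.80 to -0.31) and was not called (adjusted p = 0.483). For these genes a genotype difference in the TNFa response was not shown, and a p above the threshold does not show that the responses are alike.

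**Figure D5:**
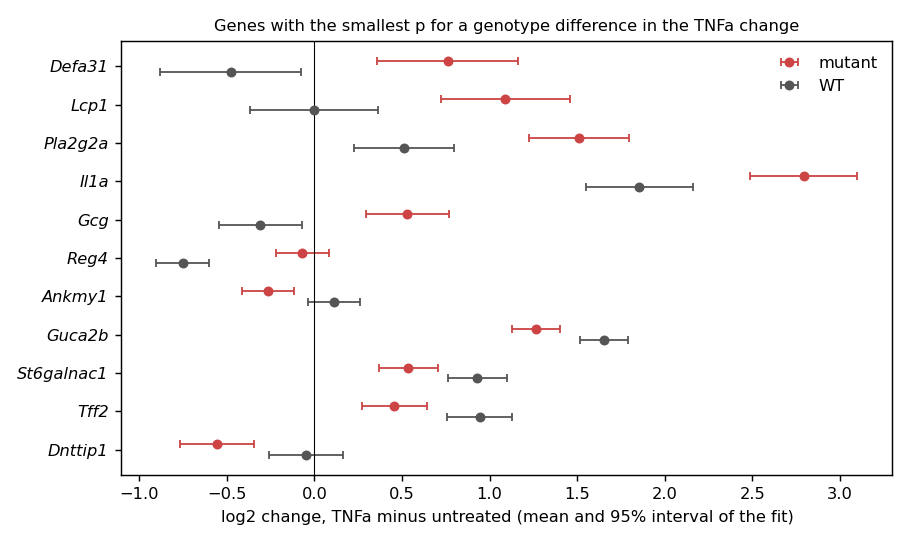
Log2 change with TNFa (mean and 95% interval of the fit, n = 4 arrays per group) in mutant (red) and WT (grey) organoids for Reg4 and the 5 genes each way with the smallest p for the difference among genes called in mutant. Reg4 is near 0 in mutant and at -0.75 in WT, and it alone passed the adjusted threshold.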

How the data were processed

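Per the labels' protocols, biotin-labelled amplified RNA of 16 mouse colon organoid samples was measured on single-colour arrays, 1 per sample. The deposited values are log2 signals that the authors made with RMA in Affymetrix Expression Console, per the submitters' processing notes. Tool versions, array design and detection calls remain not given in the sources used here. Array number limits the precision, and no read depth applies.

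Of 19825 probe sets 18851 carried 1 gene symbol, 974 carried none and 0 carried several. For each of 18850 genes the probe set of highest mean stood for the gene, which was tested if above its array's 40th percentile on at least 4 of 16 arrays, which set 7084 aside. The dim limit is the highest of these percentiles. Group means of all 16 arrays were fitted with limma 3.58.1 in R 4.3.3 with no further normalization. The call threshold was a Benjamini-Hochberg adjusted p of 0.05. The script was tested on simulated data.

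Genes were named by a rule: the 20 largest rises and 15 largest falls among called genes whose mutant arrays did not overlap, up to 4 called members per list with the smallest p, genes called for the difference, the 5 each way with its smallest p among genes called in mutant, and Atf2 and Atf7. The other genes were chosen after their values were seen. The 38 lists hold 1343 distinct genes, 1207 on the array and 966 tested. Members and lists were chosen with earlier results of these data known. Near-identical genes can share probes.

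The alternatives were array weights, no filter, a 2-fold minimum, a variance trend (with robust fitting), a 60th percentile filter, averaging the probe sets of a gene, testing each probe set alone, centring arrays on their medians, a further quantile normalization, the replicate number as a block, only the 8 mutant arrays, and leaving out each array. Deviations of same-numbered treated and untreated mutant samples correlated at 0.0154, -0.0737, 0.1938 and -0.0907, and the numbers were not taken to pair the samples. With so few samples these correlations cannot exclude a pairing.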

Additional observations from a re-analysis of the deposited data

Results flagged for a closer look

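Among 384 groups of 4 mutant arrays, 27 had 1 array set apart from the other 3 by Dixon's gap-to-range ratio at its 95% critical value, which chance passes in about 5% of groups. Untreated array 2 was high for Clca4b (9.87 log2), Cxcl16 (10.37) and Il6st (8.83) and low for Ecscr (4.19) and Flt3l (7.40). Untreated array 1 was low for Ang4 (9.73), Mmp7 (7.30), Akr1c19 (11.28) and Slc9a4 (6.96), untreated array 3 was low for Irf1 (8.26), Tnfsf15 (8.07) and Fos (7.85), and untreated array 4 was high for Cxcl2 (6.54). Treated array 1 was high for Irf1 (9.15), Tfrc (7.72), Mapk11 (9.72) and Mki67 (10.92) and low for Ier3 (7.5). Treated array 2 was low for Tnip3 (10.35). Treated array 3 was low for Cxcl11 (7.70) and high for St6galnac1 (7.64) and Lama3 (9.95). Treated array 4 was high for Cyp2b10 (6.22), Cxcl16 (11.47), Cldn8 (10.78) and Muc2 (12.16) and low for Nfkbid (7.06). Leaving out these arrays ended no call among these genes that had one.

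The TNFa change of Reg4 differed between the genotypes by 0.69 log2 (adjusted p = 0.0344 in limma over all tested genes). The call was lost with no filter (0.0564), with the replicate number as a block (0.193) and without any of 11 of the 16 arrays (0.0604 to 0.137).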

How the results depend on the processing

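The number of genes called for TNFa in mutant organoids, 704 (413 higher, 291 lower), was 1095 with array weights (476 lower) and 68 with a 2-fold minimum (52 higher, 16 lower). With each array left out in turn it ran from 501 to 899, with 300 to 519 higher and 180 to 380 lower. With the replicate number as a block, 500 genes were called, 314 higher and 186 lower, and 12 named genes lost their call. No label says whether the numbers pair the samples. Of the mutant numbers only number 3 correlated best with its own, which cannot decide this. The 1 gene called for the difference became 3 with the 60th percentile filter, 5 with a variance trend and robust fitting, 3 with array weights, 0 with the replicate block, 0 with a 2-fold minimum, and 0 to 4 with 1 array left out. With no filter it was another gene, Ccdc136. The causes were not tested, beyond the tighter rule of a 2-fold minimum and the fewer arrays. Centring or a further quantile normalization lowered the share of higher calls from 58.7% to 53.8% and 53.4%. The 192 named genes were not followed with the 2-fold minimum or with each probe set tested alone. Reversal was scored only for named genes called in the main fit, and 0 reversed in the remaining runs. Among these called genes, 14 lost the call in the remaining settings other than leaving out an array. Signals in the dim range limit the fold changes there.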
